A study of Mus musculus with 11 samples.

Results

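The centromere and kinetochore genes described here are 38 named genes, followed in 11 bulk RNA-seq libraries of mouse pancreatic islets, where each library holds an estimated count for each of 55536 annotated genes. They were chosen by symbol as parts of the machine that joins a chromosome to the mitotic spindle, and all 38 were found in every table. The islets came from wild type C57BL/6J females that entered the study at 9 weeks of age. Multipara mice had given birth 3 times in a row and were studied 3 weeks after the last delivery, and their virgin littermates had no pregnancy. S-961, a peptide that blocks the insulin receptor and raises the demand for insulin, was injected at 100 nmol/kg 2 times a day for 3 days. The groups were 3 virgin S-961, 4 multipara S-961, 2 virgin untreated and 2 multipara untreated libraries. All groups share the strain, sex and tissue. The study names as many mice for each S-961 group as there are libraries, while the number of animals behind the untreated libraries, and any vehicle injection, is not given in the sources used here. For the untreated groups p-values thus measure the spread between these libraries, which may be technical.

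A centromere is the stretch of chromosome marked by nucleosomes with the histone variant CENP-A, which the chaperone Hjurp and the loading factor Oip5 renew in each cell cycle. On it sits the inner kinetochore, a set of CENP proteins called the constitutive centromere-associated network (CCAN), and on that the outer kinetochore, where the Knl1, Mis12 and Ndc80 complexes (the KMN network) and the Ska complex grip microtubules in mitosis. Incenp, Birc5 and Cdca8 carry the kinase Aurora B at the inner centromere, the shugoshins protect cohesion there, and Mad2l1, Ttk, Bub1 and Bub1b hold anaphase until every kinetochore is attached. Many of these genes are transcribed mainly in S phase, G2 and mitosis, and adult islet cells are known to divide rarely. In bulk RNA, fewer cells in cycle and less RNA per cell cannot be told apart.

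Total counts ran from 22028484 to 32234140 per library, and the 2 insulin genes took 13.2% to 20.7% of counts with S-961 and 35.3% to 41.4% without. Levels are given as CPM, counts scaled to each library's depth, after TMM normalization of all 11 libraries, and fold changes come from edgeR's quasi-likelihood fit over all genes. The library labelled multipara S-961 4 was nearer to the virgin S-961 libraries than to its own group. A chi-square statistic of its counts per gene was 9.19, 11.1 and 41.8 against virgin S-961 1, 2 and 3 and 53.4, 73.7 and 87.95 against multipara S-961 1, 2 and 3. Within the groups, multipara S-961 1, 2 and 3 differed from each other by 44.5 to 116, virgin S-961 3 from virgin S-961 1 and 2 by 53.8 and 59.1, and virgin S-961 1 and 2 from each other by 8.89. Results are given with and without multipara S-961 4. It was singled out after its values were seen, and leaving out a library that lies with the other group widens the separation by itself. Values without it are thus a description and no separate support for a difference.

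The parity labels of the S-961 libraries are in doubt. *Lrrc55* and *Matn2*, 2 genes known to be raised in islets in pregnancy, were looked up per library because the study names them for parity, after other values of these data were seen. *Lrrc55* stood at 0.727 and 0.847 CPM in virgin untreated 1 and 2 and at 24.9 and 22.8 CPM in multipara untreated 1 and 2. Among the S-961 libraries it stood at 7.54, 6.82 and 5.34 CPM in those labelled virgin 1, 2 and 3, at 0.596, 0.32 and 1.96 CPM in those labelled multipara 1, 2 and 3 and at 4.43 CPM in multipara 4. *Matn2* stood at 21.4 and 19.7 CPM in virgin and 51.4 and 49.99 CPM in multipara untreated libraries. With S-961 it was at 132, 143 and 148 CPM in those labelled virgin, at 41.7, 59.2 and 27.0 CPM in multipara 1, 2 and 3 and at 115 CPM in multipara 4. Both genes were thus higher in the multipara libraries without S-961, and with S-961 higher in the 3 libraries labelled virgin and in multipara 4 than in the other 3 labelled multipara. The paper reports *Matn2* and *Lrrc55* higher, and *Cenpi* and *Cenpf* lower, in multipara than in virgin islets with S-961. Between the groups as labelled here, each of these genes goes the other way. For multipara mice with S-961 the paper further reports lower cell cycle gene sets, lower *Cdk1* and *Cdc20* among others, and fewer beta cells stained for Ki67. *Cdk1* and *Cdc20* were not examined here. An effect of S-961 on *Lrrc55* and *Matn2* and an exchange of labels cannot be told apart from these counts, and neither was tested. The difference from the paper lies between groups that both had S-961. The paper names 3 virgin and 4 multipara mice with S-961, and by *Lrrc55* and *Matn2* 3 of the libraries stood low and 4 high. The groups are kept as labelled, "virgin S-961" and "multipara S-961" mean the libraries so labelled, and each direction of parity with S-961, of the interaction and of the S-961 response within a parity rests on those labels.

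In the S-961 libraries, most centromere and kinetochore genes stood higher in multipara S-961 1, 2 and 3 than in every virgin S-961 library, while multipara S-961 4 stood at the virgin level. Set as libraries labelled multipara over those labelled virgin, a direction that rests on the doubted labels, the log2 fold change was above 0 for 36 of 38 genes, with a median of 2.56 against 0.0035 for all 16784 genes tested. None passed edgeR's adjusted p of 0.05, where the lowest value was 0.315, and none of the other genes did (0% of all genes higher, 0% lower). At an unadjusted p under 0.05, 31 of the 38 were higher and 0 lower, where 8.03% of all genes were higher and 1.68% lower. DESeq2 called 22 of 38 higher at an adjusted p of 0.05, against 2.13% of all genes. Without multipara S-961 4, edgeR called 29 of 38 higher, against 2.69% of all genes, with adjusted p between 0.00295 and 0.0226. That library was left out after its values were seen to lie with the virgin ones, which favours such calls. The 22 genes of DESeq2 were all among these 29.

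**Figure D1:**
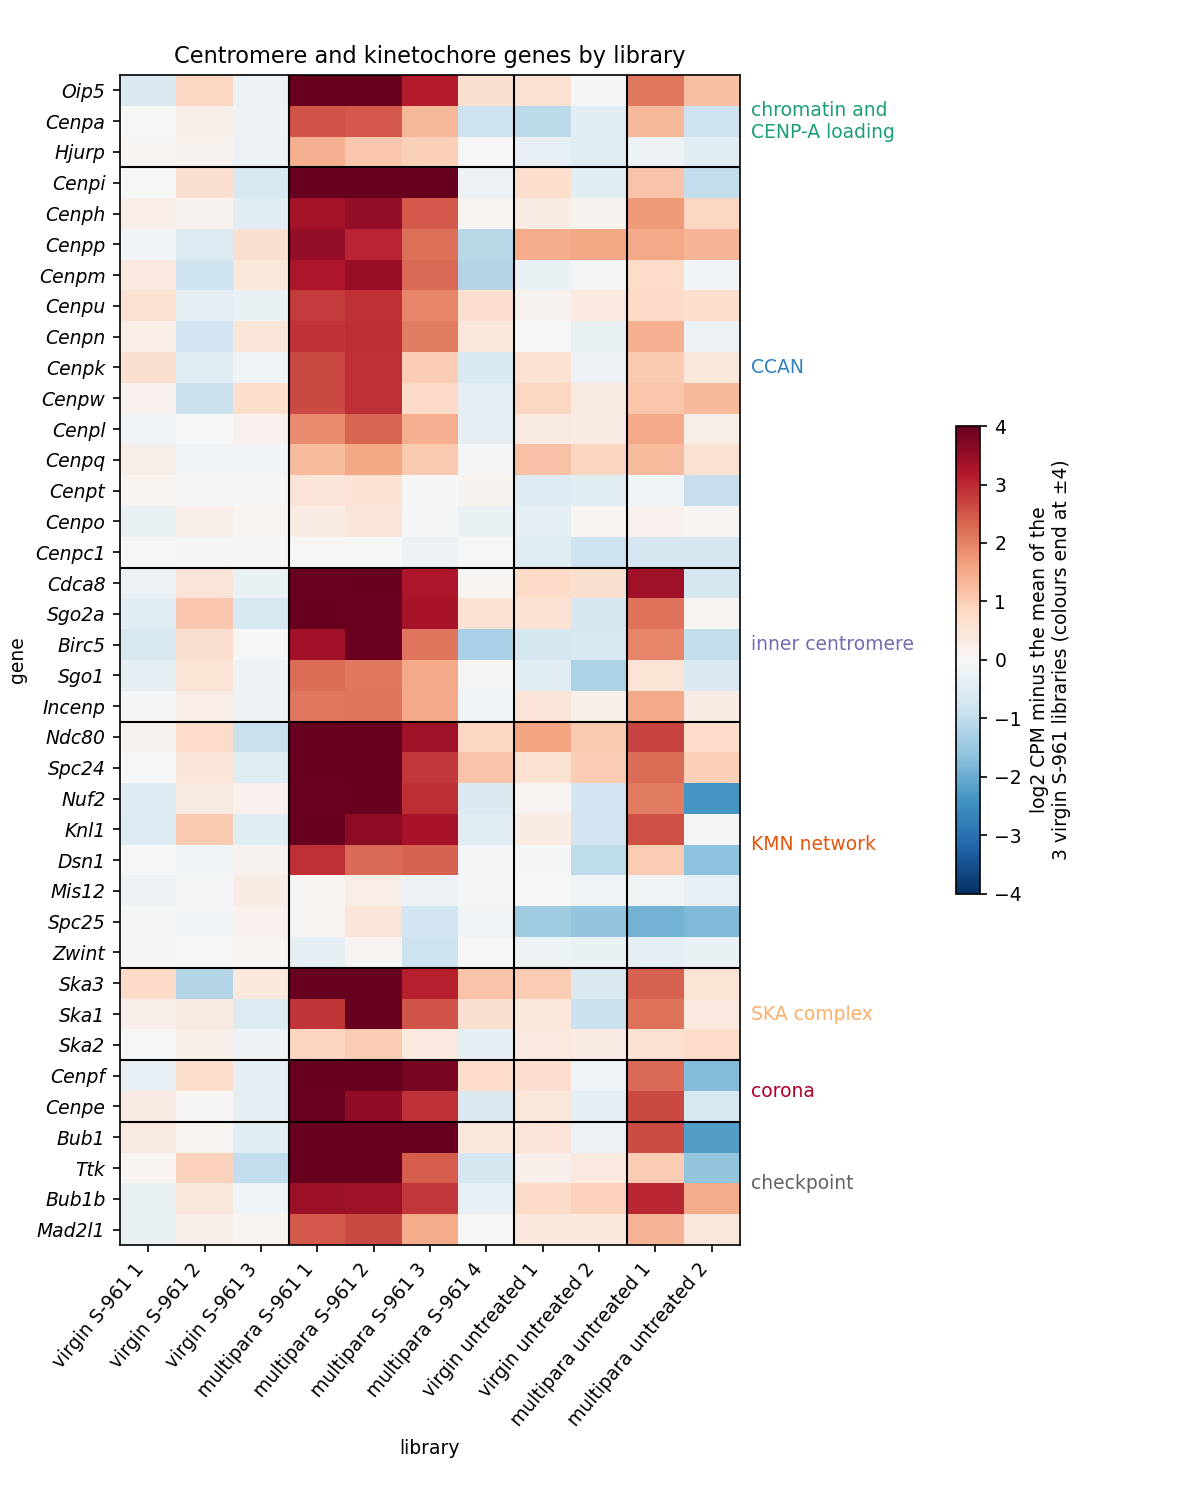
Log2 CPM of each of the 38 genes (rows, grouped by role) in each of the 11 libraries (columns), minus the mean of the 3 virgin S-961 libraries, where red is higher and blue lower and the colours end at 4 in either direction. The median of the 38 genes stood at 2.91, 3.00 and 2.17 in multipara S-961 1, 2 and 3, at -0.067 in multipara S-961 4, and at 1.40 and -0.068 in multipara untreated 1 and 2.

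Multipara S-961 1, 2 and 3 stood above the virgin S-961 libraries for most genes of every role. Of the 38 genes, 34, 36 and 32 stood above the highest virgin S-961 library in multipara S-961 1, 2 and 3, and 8 did so in multipara S-961 4. The virgin level was exceeded by all 4 multipara S-961 libraries for 7 genes, *Cenpu*, *Ndc80*, *Spc24*, *Ska1*, *Ska3*, *Cenpf* and *Bub1*, where 5.23% of all genes did so, and 0 genes lay below (3.64% of all genes). With multipara S-961 4 left out, the count above was 32 of 38, against 13.7% of all genes, and 0 lay below (10.9%). The 6 that overlapped even then were *Cenpc1*, *Cenpo*, *Cenpt*, *Mis12*, *Zwint* and *Spc25*, which were singled out after their values were seen.

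The promoters of the 3 genes with the largest fold change, *Cenpi*, *Bub1* and *Cenpf*, and of the 2 with a fold change nearest to 0, *Spc25* and *Mis12*, are shown to set genes that moved together beside genes that did not. Each line gives the 250 bases before the transcription start from RefSeq (GRCm38.p6), 5′ to 3′, with CCAAT or its reverse complement in capitals. They lie at chrX:134307834-134308083, plus strand for *Cenpi*, chr2:127831860-127832109, minus strand for *Bub1*, chr1:189688087-189688336, minus strand for *Cenpf*, chr2:69206214-69206463, minus strand for *Spc25* and chr11:71019361-71019610, plus strand for *Mis12*.
Cenpi: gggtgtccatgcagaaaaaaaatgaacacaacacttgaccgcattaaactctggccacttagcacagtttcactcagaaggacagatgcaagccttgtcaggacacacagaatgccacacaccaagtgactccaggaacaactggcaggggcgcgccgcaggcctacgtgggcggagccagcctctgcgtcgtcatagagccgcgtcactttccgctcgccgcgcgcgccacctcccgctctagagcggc
Bub1: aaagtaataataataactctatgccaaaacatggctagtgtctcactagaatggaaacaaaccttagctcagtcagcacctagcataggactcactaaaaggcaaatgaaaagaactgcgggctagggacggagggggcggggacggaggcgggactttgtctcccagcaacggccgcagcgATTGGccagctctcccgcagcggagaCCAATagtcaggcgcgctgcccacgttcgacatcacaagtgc
Cenpf: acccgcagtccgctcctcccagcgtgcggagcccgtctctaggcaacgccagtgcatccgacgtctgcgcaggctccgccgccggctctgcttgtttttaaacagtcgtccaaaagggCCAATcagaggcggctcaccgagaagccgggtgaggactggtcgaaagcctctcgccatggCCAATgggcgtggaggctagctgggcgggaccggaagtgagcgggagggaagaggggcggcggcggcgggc
Spc25: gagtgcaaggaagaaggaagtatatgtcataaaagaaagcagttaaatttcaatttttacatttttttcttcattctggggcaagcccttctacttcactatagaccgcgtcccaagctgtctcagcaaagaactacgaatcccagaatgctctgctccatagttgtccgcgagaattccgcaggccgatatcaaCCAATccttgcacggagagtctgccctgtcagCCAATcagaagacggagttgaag
Mis12: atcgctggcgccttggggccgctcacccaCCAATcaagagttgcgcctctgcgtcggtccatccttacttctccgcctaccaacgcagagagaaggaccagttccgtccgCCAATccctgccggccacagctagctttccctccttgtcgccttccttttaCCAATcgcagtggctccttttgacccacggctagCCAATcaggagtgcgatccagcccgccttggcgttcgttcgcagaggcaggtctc

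CCAAT, the box bound by NF-Y in many cell cycle promoters, was found 0 times before *Cenpi*, 2 times before *Bub1*, *Cenpf* and *Spc25* and 4 times before *Mis12*. The printed promoters of both kinds of gene thus held it, and *Cenpi* had its 1 copy in the 50 bases after the start. On both strands of the 300 bases from 250 before to 50 after the start, CCAAT was found for 25 of the 35 genes with an entry (71.4%), against 41.1% of 27025 mouse genes with an entry. The letters TTTGAA, the cell cycle homology region at which the DREAM complex represses mitotic genes, were found for 14 of 35 (40%), against 20.2%. Any of the E2F letters TTTCCCGC, TTTGGCGC, TTTCGCGC or TTTGCCGC was found for 3 of 35, *Cenpl*, *Cenpm* and *Dsn1* (8.57%), against 2.6%. Among the genes with a log2 fold change of 1 or more, 12 of 27 held TTTGAA and 19 of 27 held CCAAT. Of those under 1, 2 of 8 held TTTGAA, which were *Hjurp* and *Spc25*, and 6 of 8 held CCAAT. These matches are letters in a window and not measured sites. *Spc24*, *Incenp* and *Ska1* had no entry. The 38 genes lie on 18 chromosomes, and 12 of them share exon sequence with a gene on the other strand, which matters only if the counting, whose strand setting is not given in the sources used here, ignored strand. Of these 12, 8 had a log2 fold change of 1 or more, as did 30 of all 38.

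The 3 genes of centromeric chromatin were all higher at an unadjusted p under 0.05. *Cenpa*, the histone variant itself, stood at 1.73, 2.05 and 1.49 CPM in virgin S-961 1, 2 and 3 and at 10.2, 9.75, 4.48 and 0.946 CPM in multipara S-961 1 to 4. Its log2 fold change was 1.87 ± 0.67 (SE; edgeR), and 2.23 ± 0.34 without multipara S-961 4. Multipara S-961 1, 2 and 3 lay above all virgin libraries and multipara S-961 4 below all of them. *Oip5*, which brings the loading machinery to the centromere, was near 0 in virgin islets with 0.0618, 0.272 and 0.0971 CPM and reached 3.44, 3.4, 1.65 and 0.236 CPM in the multipara libraries, a log2 fold change of 3.90 ± 0.94. *Hjurp*, the chaperone of CENP-A, had by far the highest level of the 3, at 5.45 CPM per kb of exon in virgin S-961 islets against 0.3 for *Cenpa* and 0.0807 for *Oip5*. It stood at 48.2, 49.5 and 38.6 CPM in virgin and 121, 96.3, 88.1 and 44.6 CPM in multipara S-961 libraries, with a log2 fold change of 0.97 ± 0.29, the smallest of the 3. Its multipara S-961 1, 2 and 3 were again above all virgin libraries. *Hjurp* lies at chr1:88262471-88277633, minus strand (GRCm38) and starts 28 bases from the start of *Trpm8* on the other strand.

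In the inner kinetochore, of the 13 CCAN genes, 12 had a positive log2 fold change, with a median of 2.08 and 10 at an unadjusted p under 0.05. *Cenpi*, a subunit of the part of the CCAN that helps deposit new CENP-A, lies at chrX:134308084-134362639, plus strand, and showed the largest fold change of all 38 genes. The direction by label is opposite to the paper, which reports *Cenpi* lower in multipara islets with S-961. Its level was 0.185, 0.332 and 0.0971 CPM in virgin S-961 1, 2 and 3 and 6.97, 7.48, 4.94 and 0.148 CPM in multipara S-961 1 to 4. The log2 fold change was 4.57 ± 1.11 with an adjusted p of 0.315, and 4.97 ± 0.42 with 0.00295 without multipara S-961 4. Over all 14 settings tried, the fold change ran from 2.28 to 5.09 and the adjusted p from 0.00295 to 1.0. Multipara S-961 4 fell inside the virgin range, and the other 3 multipara libraries were all above 4 CPM.

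*Cenph*, a partner of Cenpi and Cenpk, also had multipara S-961 1, 2 and 3 above every virgin library. Its level was 0.402, 0.362 and 0.227 CPM in virgin and 3.88, 4.36, 2.06 and 0.355 CPM in multipara S-961 libraries, with a log2 fold change of 3.02 ± 0.77. *Cenpp*, a subunit of the CENP-O complex, stood at 0.185, 0.121 and 0.356 CPM in virgin and 3.04, 2.18, 1.18 and 0.0591 CPM in multipara S-961 libraries, a log2 fold change of 2.87 ± 1.01, though its lowest library held few counts. *Cenpp* shares exon sequence with *Ippk* and *Aspn* on the other strand. The log2 fold changes of *Cenpm*, *Cenpu*, *Cenpn*, *Cenpk*, *Cenpw*, *Cenpl* and *Cenpq* lay between 1.10 and 2.69, in each with multipara S-961 1, 2 and 3 above every virgin library and multipara S-961 4 within or below the virgin range, except that *Cenpu* was a little above it.

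The remaining CCAN genes had log2 fold changes between -0.025 and 0.34, with overlapping groups. *Cenpc1*, which encodes CENP-C, the protein that links CENP-A nucleosomes to the Mis12 complex, stood at 20.9, 19.4 and 21.3 CPM in virgin and 20.8, 20.7, 17.5 and 20.9 CPM in multipara S-961 libraries. Its log2 fold change was -0.025 ± 0.12 with an adjusted p of 0.961, and over 14 settings it ran from -0.072 to 0.030, on both sides of 0. *Cenpt*, which binds DNA on one side and the Ndc80 complex on the other, stood at 4.54, 4.16 and 4.14 CPM in virgin and 6.15, 6.49, 4.09 and 4.76 CPM in multipara S-961 libraries and had a log2 fold change of 0.34 ± 0.22. *Cenpo* had a log2 fold change of 0.14 ± 0.24. *Cenpc1* and *Cenpt* encode the CCAN proteins that connect directly to the outer kinetochore, and had the 2 highest levels of the CCAN genes per kb of exon, at 3.65 and 1.17 CPM per kb in virgin S-961 islets.

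At the inner centromere the 5 genes of the passenger complex and the shugoshins all had positive log2 fold changes, from 1.66 to 3.59 with a median of 2.92, and all 5 were at an unadjusted p under 0.05. *Cdca8*, which encodes Borealin, stood at 0.371, 0.664 and 0.356 CPM in virgin S-961 1, 2 and 3 and at 7.86, 9.11, 4.76 and 0.473 CPM in multipara S-961 1 to 4, a log2 fold change of 3.59 ± 0.86. *Birc5*, which encodes survivin, stood at 0.649, 1.69 and 1.04 CPM in virgin and 11.4, 17.2, 4.84 and 0.384 CPM in multipara S-961 libraries, a log2 fold change of 2.92 ± 0.98. *Birc5* in multipara S-961 4 was the lowest of the 7. *Sgo2a*, a shugoshin, stood at 0.155, 0.573 and 0.129 CPM in virgin and 4.85, 4.66, 2.88 and 0.384 CPM in multipara S-961 libraries, with a log2 fold change of 3.48 ± 0.88. *Incenp*, the scaffold of the complex, had the highest virgin S-961 level of the 5 per kb of exon, 0.931 CPM per kb, and the smallest fold change. It stood at 3.8, 4.83 and 3.46 CPM in virgin and 17.4, 18, 11.6 and 3.52 CPM in multipara S-961 libraries, a log2 fold change of 1.66 ± 0.49.

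In the outer kinetochore the 8 genes of the KMN network fell into 5 with large fold changes and 3 near 0. *Ndc80*, whose product binds the microtubule, stood at 0.402, 0.634 and 0.162 CPM in virgin and 9.14, 9.98, 4.4 and 0.68 CPM in multipara S-961 libraries, a log2 fold change of 3.93 ± 0.88. Its partner *Nuf2* stood at 0.402, 0.785 and 0.679 CPM in virgin and 10.2, 12.6, 5.12 and 0.384 CPM in multipara S-961 libraries, a log2 fold change of 3.52 ± 0.95. *Spc24*, which ties the complex to the inner kinetochore, stood at 0.711, 1.03 and 0.485 CPM in virgin and 15.2, 15.9, 5.43 and 1.66 CPM in multipara S-961 libraries, a log2 fold change of 3.70 ± 0.77. *Spc24* and *Ndc80* were 2 of the 7 genes in which even multipara S-961 4 lay above the virgin range. *Knl1* and *Dsn1*, the landing platform of the checkpoint and a Mis12 complex subunit, had log2 fold changes of 3.25 ± 0.95 and 2.32 ± 0.62.

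*Mis12*, *Zwint* and *Spc25* had log2 fold changes between -0.22 and 0.015, with overlapping groups. *Mis12*, which names the complex that holds Dsn1, stood at 23.7, 25.6 and 33.5 CPM in virgin and 28.8, 32.7, 23.3 and 25.9 CPM in multipara S-961 libraries, a log2 fold change of 0.015 ± 0.17. *Zwint*, a Knl1 partner, stood at 136, 141 and 152 CPM in virgin and 112, 154, 81.3 and 142 CPM in multipara S-961 libraries, a log2 fold change of -0.22 ± 0.20. *Spc25*, the partner of Spc24 in the Ndc80 complex, had the highest level of the 38 genes per kb. It stood at 397, 384 and 463 CPM in virgin and 443, 586, 245 and 376 CPM in multipara S-961 libraries, a log2 fold change of 0.0041 ± 0.26 with an adjusted p of 0.998, and over 14 settings the log2 fold change ran from -0.21 to 0.18, on both sides of 0. Within the Ndc80 complex, *Spc25* thus lay near 0 while *Spc24*, *Ndc80* and *Nuf2* lay above 3, and within the Mis12 complex *Mis12* lay near 0 while *Dsn1* lay above 2. The differences between subunits were not tested.

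**Figure D2:**
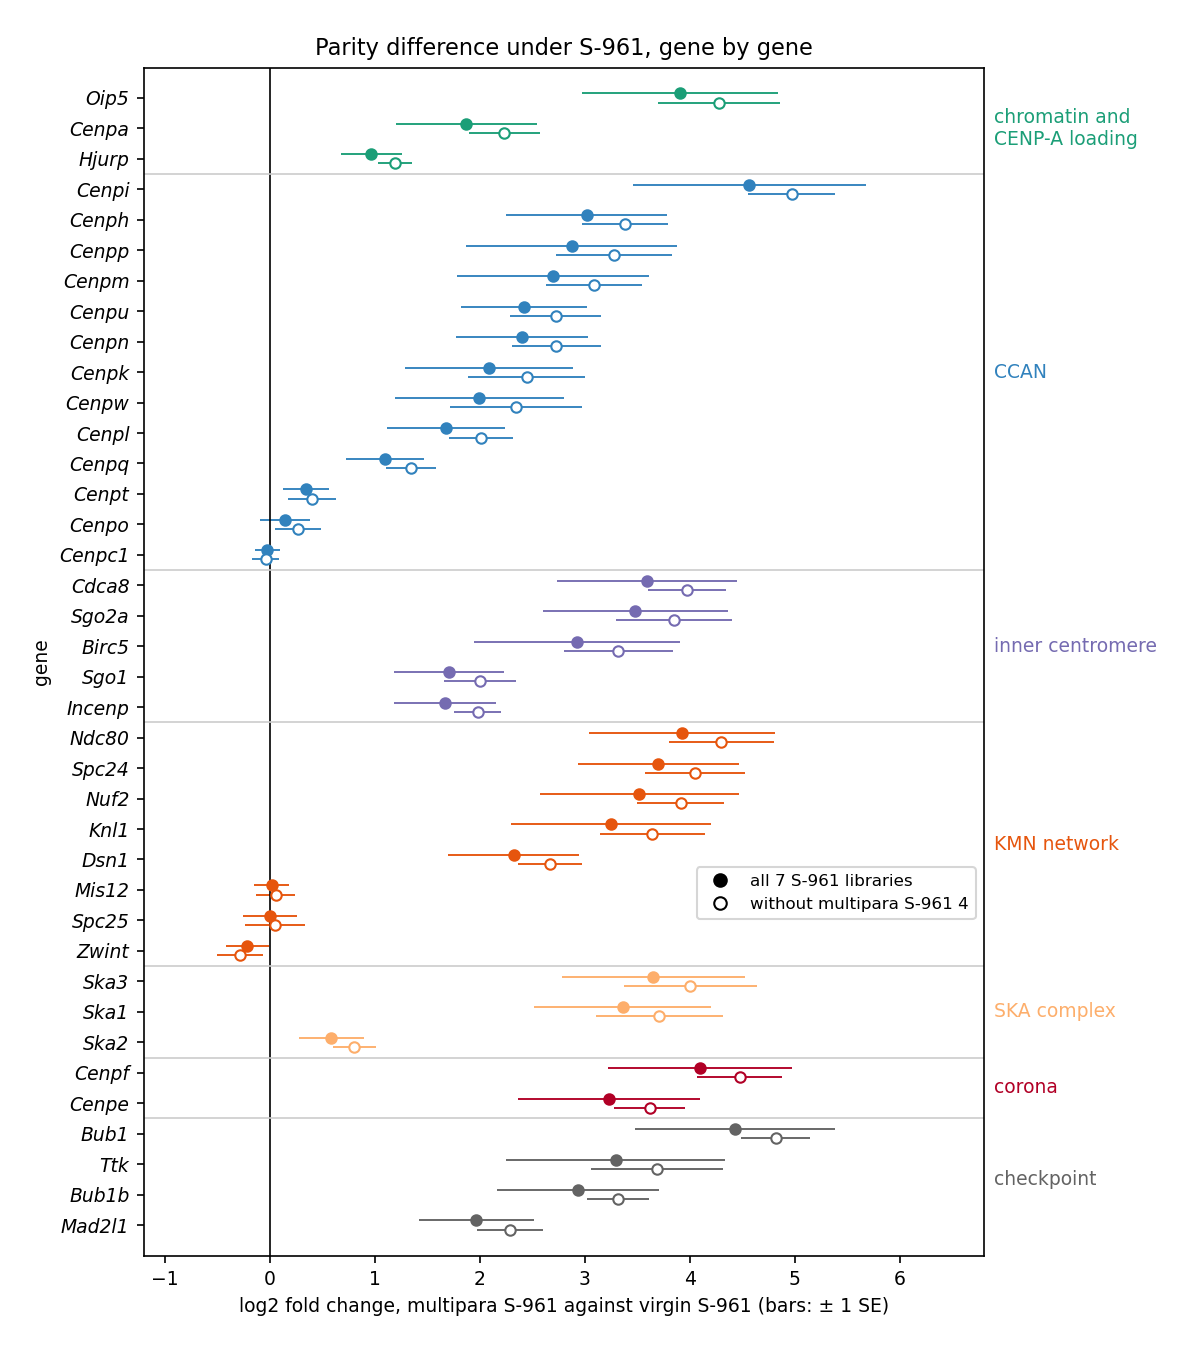
Log2 fold change of multipara S-961 over virgin S-961 for each of the 38 genes, with bars of 1 SE, from all 7 libraries (filled) and without multipara S-961 4 (open), coloured by role. Leaving out the library moved *Cenpi* from 4.57 to 4.97 and narrowed its SE from 1.11 to 0.42, and left *Mis12*, *Spc25* and *Cenpc1* near 0.

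Ska1, Ska2 and Ska3 form the complex that keeps kinetochores on shrinking microtubules. *Ska3* stood at 0.309, 0.0302 and 0.227 CPM in virgin and 3.44, 3.78, 1.85 and 0.414 CPM in multipara S-961 libraries, a log2 fold change of 3.65 ± 0.87. *Ska1* stood at 0.155, 0.181 and 0.0647 CPM in virgin and 1.33, 2.97, 1.03 and 0.236 CPM in multipara S-961 libraries, a log2 fold change of 3.36 ± 0.84. In both, all 4 multipara libraries exceeded all virgin ones. *Ska2* stood at 6.52, 7.6 and 5.76 CPM in virgin and 12, 13.5, 8.73 and 5.08 CPM in multipara S-961 libraries, a log2 fold change of 0.59 ± 0.31, and overlaps *Gm11491* on the other strand. The corona genes had large fold changes, in *Cenpf* opposite in direction to the paper, which reports it lower in multipara islets with S-961. *Cenpf*, which encodes a very long protein of the corona and of the nuclear matrix in G2, lies at chr1:189640606-189688086, minus strand, and stood at 0.618, 1.33 and 0.582 CPM in virgin and 24.4, 19.7, 11.7 and 1.36 CPM in multipara S-961 libraries. Its log2 fold change was 4.09 ± 0.87 with an adjusted p of 0.315, and 4.47 ± 0.40 with 0.00295 without multipara S-961 4, within a range of 0.00229 to 1.0 over 14 settings. *Cenpe*, a kinesin that carries chromosomes to the spindle equator, stood at 1.05, 0.845 and 0.615 CPM in virgin and 13.6, 10.3, 6.56 and 0.532 CPM in multipara S-961 libraries, a log2 fold change of 3.23 ± 0.87.

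All 4 checkpoint genes had positive log2 fold changes at an unadjusted p under 0.05, with a median of 3.11. *Bub1*, the kinase that starts checkpoint signalling at Knl1, lies at chr2:127801122-127831865, minus strand and stood at 0.34, 0.272 and 0.162 CPM in virgin and 8.11, 7.94, 5.77 and 0.355 CPM in multipara S-961 libraries. Its log2 fold change of 4.43 ± 0.95 was the second largest of the 38 genes, and 4.82 ± 0.33 without multipara S-961 4. *Ttk*, which encodes the kinase Mps1, stood at 0.34, 0.664 and 0.129 CPM in virgin and 6.18, 6.37, 2.03 and 0.177 CPM in multipara S-961 libraries, a log2 fold change of 3.29 ± 1.04. *Bub1b*, which encodes BubR1, stood at 0.773, 1.36 and 0.874 CPM in virgin and 11.4, 10.9, 7.34 and 0.768 CPM in multipara S-961 libraries, a log2 fold change of 2.94 ± 0.77. *Mad2l1*, which encodes Mad2, the inhibitor of the anaphase-promoting complex, stood at 2.63, 3.74 and 3.56 CPM in virgin and 18, 20.6, 9.27 and 3.31 CPM in multipara S-961 libraries, a log2 fold change of 1.97 ± 0.55. In every checkpoint gene multipara S-961 1, 2 and 3 lay above all virgin libraries.

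**Figure D3:**
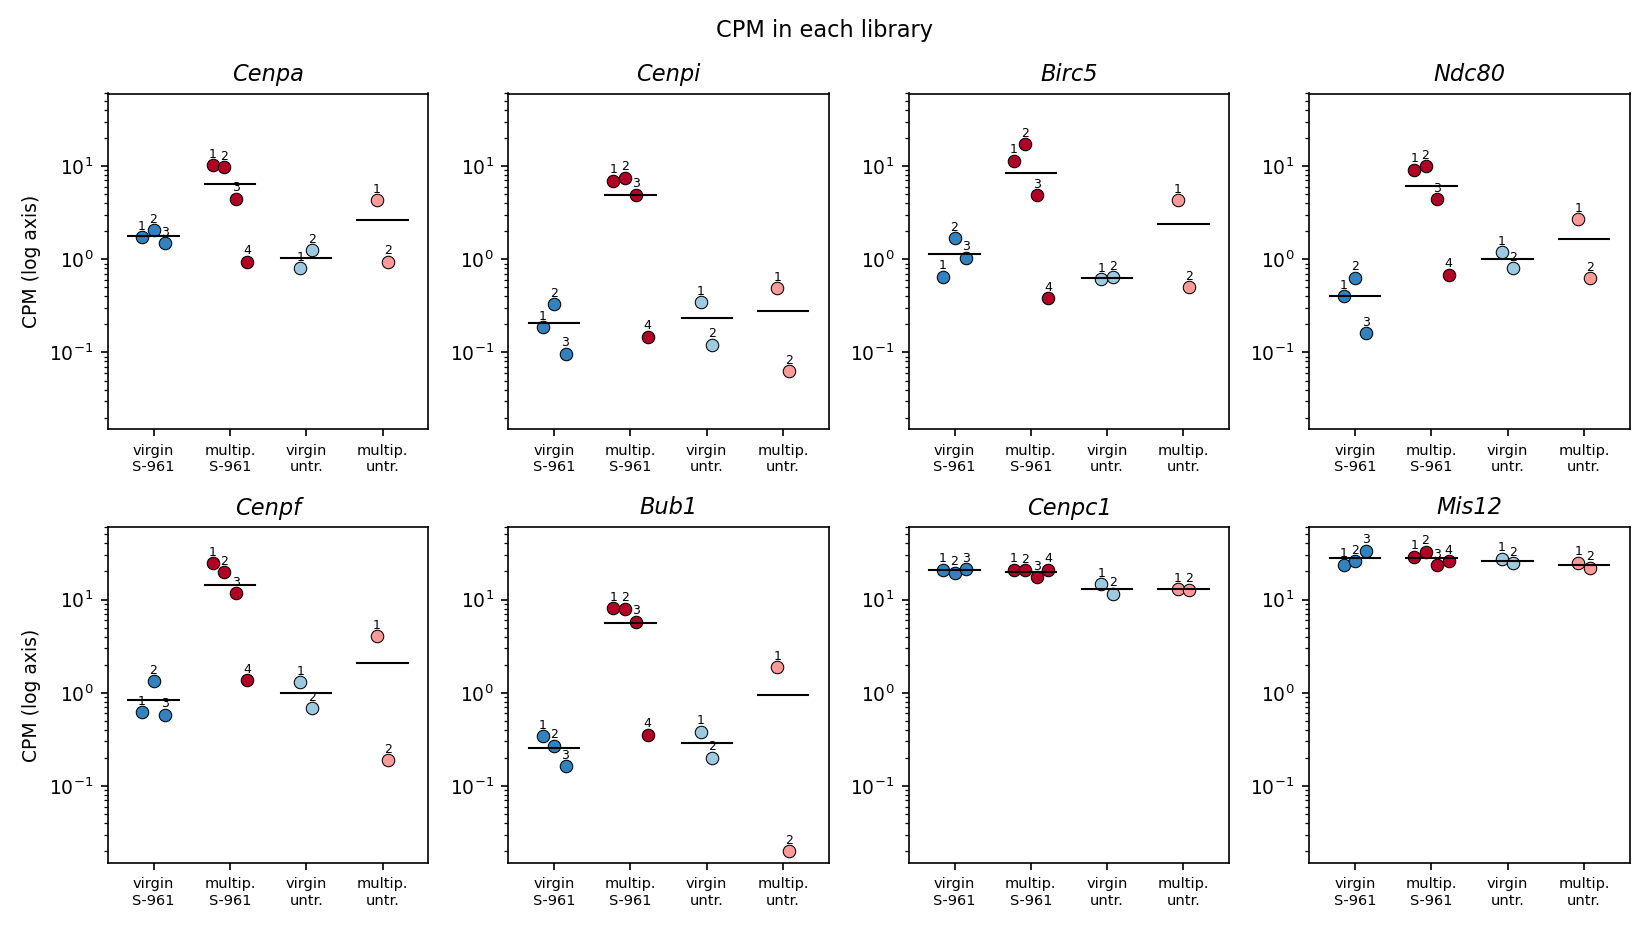
CPM (log axis) of 8 genes in each library, with the replicate number over each point and the mean of each group as a line. In *Cenpa*, *Cenpi*, *Birc5*, *Ndc80*, *Cenpf* and *Bub1* multipara S-961 1 to 3 lie above the virgin libraries and 4 does not stand with them, while the groups of *Cenpc1* and of *Mis12* overlap. *Bub1* had a count of 0 in multipara untreated 2, drawn at the foot of its panel.

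By position, the median log2 fold change was larger for the outer kinetochore than for the centromere side. The median log2 fold change was 2.04 for the 16 genes of centromeric chromatin and CCAN, 2.08 with the 5 inner centromere genes added, and 3.25 for the 13 genes of the outer kinetochore, a difference of 1.21 between the first and the last. By role the medians were 1.87 for chromatin and loading, 2.08 for the CCAN, 2.92 for the inner centromere, 2.79 for KMN, 3.36 for Ska, 3.66 for the corona and 3.11 for the checkpoint. Measured in single libraries as a deviation from the virgin mean, the outer median exceeded the median of the 16 by 1.29, 0.67 and 1.43 in multipara S-961 1, 2 and 3, by 0.072 in multipara S-961 4 and by -0.12 to 0.26 in the virgin libraries. Without multipara S-961 4 the genes called higher were 3 of 3 of chromatin, 8 of 13 of the CCAN, 5 of 5 of the inner centromere, 5 of 8 of KMN, 2 of 3 of Ska, 2 of 2 of the corona and 4 of 4 of the checkpoint. Of all genes, 2.69% were called higher in that fit. No test was run on the difference of medians. With the mean log2 CPM of the acinar markers as a covariate the difference of medians was 0.33.

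The genes also divided by their level in virgin S-961 islets. Per kb of exon, 7 genes stood above 1 CPM in virgin S-961 islets, *Spc25* at 130.1, *Zwint* at 32.2, *Mis12* at 9.20, *Hjurp* at 5.45, *Cenpc1* at 3.65, *Ska2* at 2.03 and *Cenpt* at 1.17, and the other 31 at or below it. The 7 had log2 fold changes from -0.22 to 0.97 with a median of 0.015, and the 31 from 0.14 to 4.57 with a median of 2.94. This bound of 1 was set after the values were seen, and the level and the fold change share the virgin libraries. Among the 31, the 13 genes on the centromere side had a median of 2.40, the 5 of the inner centromere 2.92 and the 9 of the outer kinetochore 3.52.

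**Figure D4:**
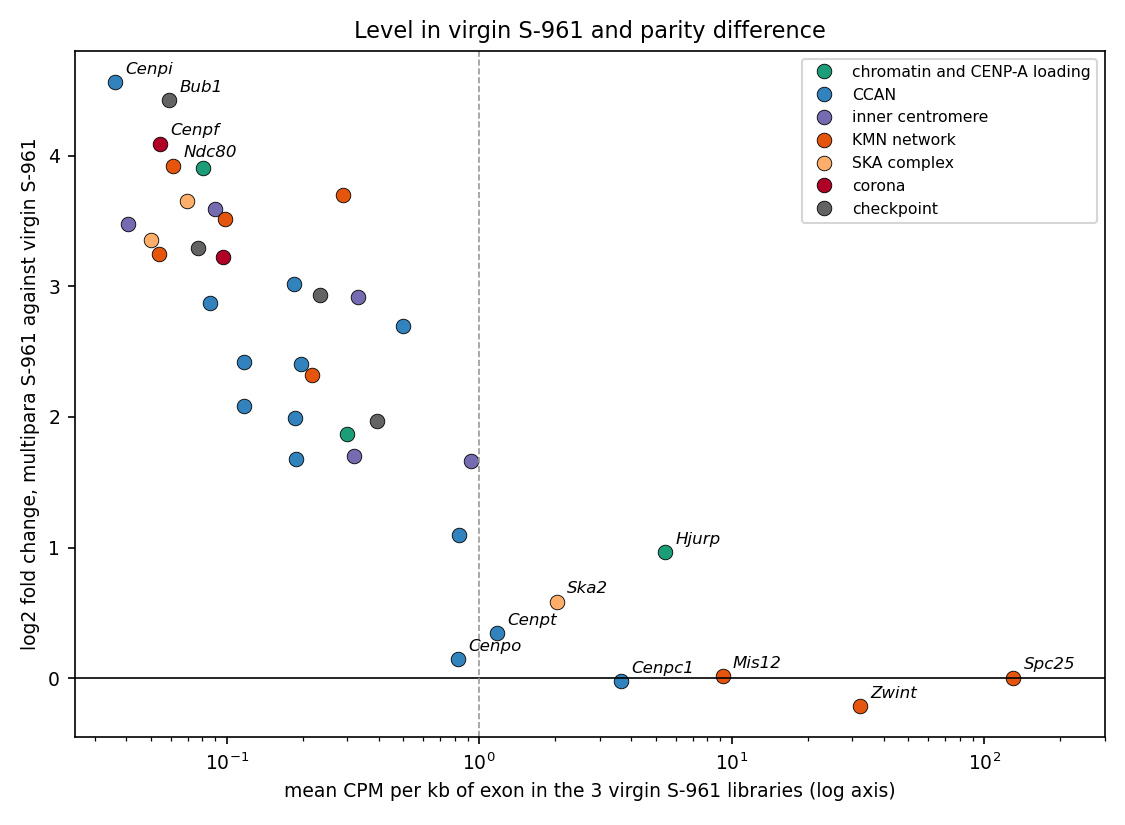
Each point is a gene, with its mean CPM per kb of exon over the 3 virgin S-961 libraries (log axis) against its log2 fold change in the S-961 comparison, coloured by role, and a dashed line at 1 CPM per kb. The 7 genes right of the line lie below a fold change of 1, and *Cenpo* is the only one left of it that does.

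*Spc25* stood out for its level and for its neighbour. The gene lies at chr2:69193895-69206194, minus strand and starts 4878 bases from the start of *G6pc2* (chr2:69211073-69227841, plus strand), which encodes the islet glucose-6-phosphatase subunit, with 0 genes between. *G6pc2* was examined after the values of *Spc25* were seen. It stood at 7077, 7093 and 7994 CPM in virgin S-961 1, 2 and 3, at 4925, 5978, 2596 and 6980.2 CPM in multipara S-961 1 to 4, at 2200.3 and 2051 CPM in virgin untreated 1 and 2 and at 1543 and 1949 CPM in multipara untreated 1 and 2. *Spc25* in the untreated libraries stood at 153 and 138 CPM in virgin and 111 and 121 CPM in multipara. In both genes every S-961 library exceeded every untreated one. As a ratio of CPM, not per length, *Spc25* amounted to 5.39% to 5.80% of the *G6pc2* level in the virgin S-961 libraries and in multipara S-961 4, to 9.0%, 9.81% and 9.44% in multipara S-961 1, 2 and 3, and to 6.19% to 7.22% in untreated libraries. Per kb, *Spc25* exceeded its partner *Spc24* in all 11 libraries, by 23.6 to 771 times. The 771 rests on a *Spc24* count of 15 in virgin S-961 3, and *Spc24* counts ran from 15 to 560 with a median of 37. The 36 genes other than *Spc25* and *Zwint* together stood at 133 to 143 CPM in virgin S-961 islets, at 439, 430.2, 277 and 130.3 CPM in multipara S-961 1 to 4, at 129 and 115 CPM in virgin untreated 1 and 2 and at 188 and 118 CPM in multipara untreated 1 and 2.

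**Figure D5:**
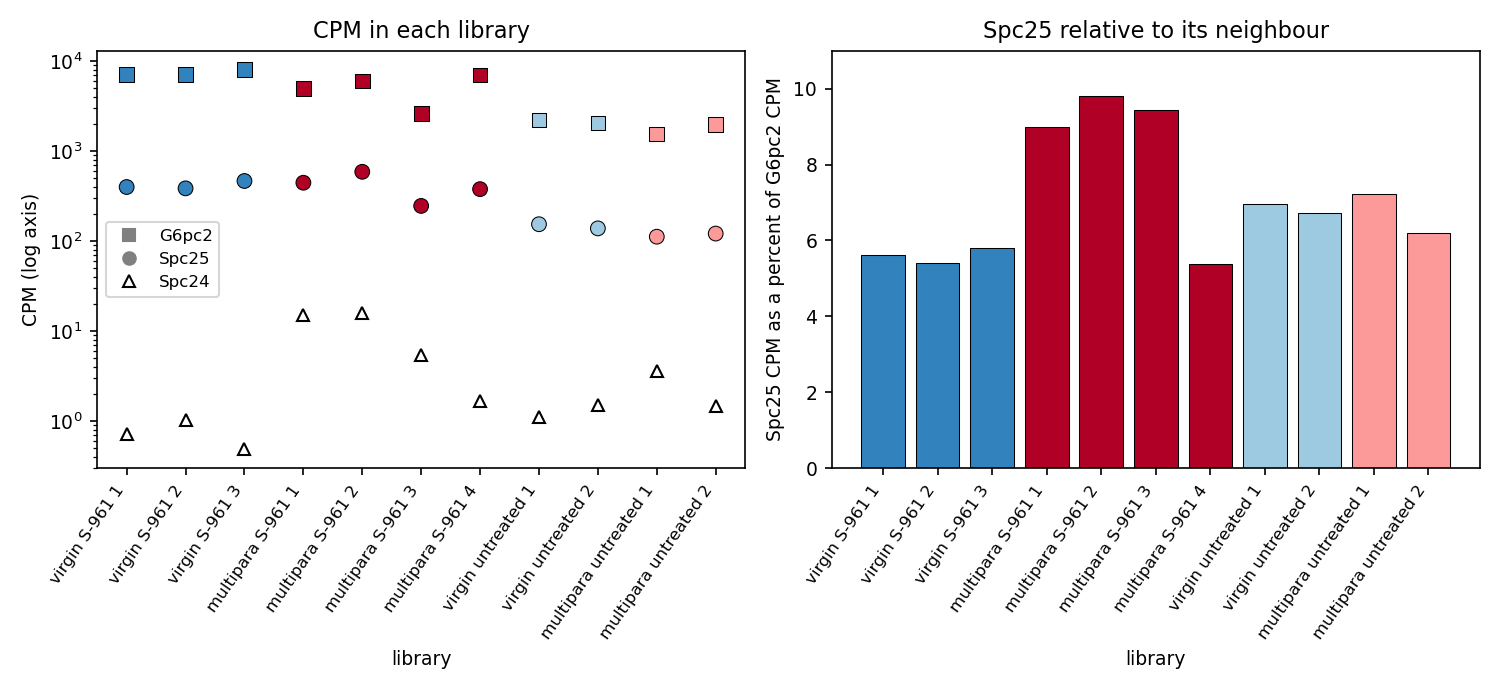
Left, CPM (log axis) of *G6pc2*, *Spc25* and *Spc24* in each of the 11 libraries. Right, *Spc25* CPM as a percent of *G6pc2* CPM, which is 5.39% to 5.80% in virgin S-961 libraries and multipara S-961 4 and 9.0% to 9.81% in multipara S-961 1 to 3.

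In the untreated libraries the 38 genes were not called in either direction. Of the 32 that passed the filter on low counts, 26 were above 0 on the log2 scale, multipara over virgin, and the median was 0.66, against 0.017 for all genes. By edgeR 0 had an adjusted p under 0.05 in either direction (0% of all genes) and by DESeq2 0 did (0.139% higher and 0.215% lower of all genes). At an unadjusted p under 0.05, *Bub1b* was higher (log2 fold change 1.67 ± 0.58; 2.52% of all genes) and *Spc25* lower (-0.32 ± 0.087; 3.1% of all genes). *Oip5*, *Cenpi*, *Sgo2a*, *Ska1*, *Ska3* and *Bub1* were too low to be tested.

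The untreated median rested on 1 library. *Bub1b* stood at 1.68 and 1.89 CPM in virgin and 8.4 and 2.84 CPM in multipara untreated 1 and 2, and *Birc5* at 0.612 and 0.645 CPM in virgin and 4.29 and 0.504 CPM in multipara. Both genes had their highest value in multipara untreated 1. *Cdca8* stood at 0.803 and 0.726 CPM in virgin and 5.27 and 0.252 CPM in multipara untreated libraries, and *Cenpf* at 1.3 and 0.685 CPM in virgin and 4.02 and 0.189 CPM in multipara. *Cenpi*, not tested here, stood at 0.344 and 0.121 CPM in virgin and 0.491 and 0.063 CPM in multipara. In each of these multipara untreated 1 was the highest of the 4, and in all but *Bub1b* multipara untreated 2 was the lowest. Without multipara untreated 1 the median log2 fold change was -0.10 with 0 genes called (0.135% of all genes higher), and without multipara untreated 2 it was 1.33 with 12 genes called higher (8.81% of all genes), in fits that assume that the lone library varies as the virgin ones do. Multipara untreated 1 also held the highest marker levels of lymphocytes (summed 298 CPM over 8 genes, against 28.2 to 43.0 in the other untreated libraries), macrophages (955, against 196 to 227) and red cells (2385, against 158 to 487), with all 8, 8 and 5 genes of these lists positive, and their part in the result was not tested. The 7 genes with both multipara libraries above both virgin ones and the 2 below compare with 17.3% and 18.8% of all genes.

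Whether the parity difference itself differed between S-961 and untreated islets was tested by the interaction over all 11 libraries, whose sign rests on the doubted S-961 labels. By edgeR 0 of 38 genes had an adjusted p under 0.05 (0% of all genes), the lowest being 0.748. By DESeq2 0 of 38 did, where 0.339% of all genes were called higher. At an unadjusted p under 0.05, *Spc24*, *Ndc80* and *Cenpi* were higher, where 4.27% of all genes were. Their interaction terms were 2.70 ± 1.12, 3.15 ± 1.34 and 4.22 ± 1.83. Of the 38 terms 35 were positive with a median of 1.38, against -0.036 for all genes, and the median was 2.41 without multipara untreated 1 and 0.77 without multipara untreated 2.

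The response to S-961 within each parity shares libraries with the comparisons above. It sets S-961 libraries of a labelled parity against untreated ones of that label, so the doubt over the S-961 labels reaches it too. The labels give no day or batch, so either may differ with treatment. The summed acinar markers ran from 2163 to 14351 CPM with S-961 and from 145 to 237 CPM without. Of the 16, 15 were called higher in each parity, where 18.8% and 18.2% of all genes were. Of 4 alpha cell markers, 3 were called lower in virgin islets, and in multipara islets 2 higher and 1 lower. The part of these cells in the calls that follow was not tested. In virgin islets *Spc25* and *Cenpc1* were called higher with S-961, where 18.8% of all genes were higher and 17.6% lower, and 0 of the 38 were called lower. *Cenpc1* stood at 14.6 and 11.5 CPM in virgin untreated islets, below all 3 virgin S-961 libraries, a log2 fold change of 0.65 ± 0.14 with edgeR's adjusted p of 0.00523. Leaving out virgin untreated 2 left 1 of these 2 calls, where 8.12% of all genes were higher. For *Spc25* the log2 fold change was 1.51 ± 0.30 with 0.00292. The median log2 fold change of the 38 genes was -0.15, against -0.036 for all genes, and 17 of the 38 were positive. In a fit without multipara S-961 4, which shares its spread with the virgin groups, *Cenpp* and *Cenpq* were called lower, where 18.3% of all genes were. Between all virgin S-961 and all virgin untreated libraries, 8 of the 38 lay wholly above (32.8% of all genes) and 9 wholly below (35.5%). *Ndc80* was at 1.19 and 0.806 CPM without and 0.402, 0.634 and 0.162 CPM with S-961, a log2 fold change of -1.31 ± 0.97, and *Cenpp* was at 0.689 and 0.726 CPM without and 0.185, 0.121 and 0.356 CPM with it, a log2 fold change of -1.67 ± 1.03. Neither was called with all libraries.

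In multipara islets 5 of the 38 were called higher with S-961, where 18.2% of all genes were higher, and 0 lower (19.4%). They were *Spc25* (1.83 ± 0.29, edgeR's adjusted p of 0.0010), *Cenpc1* (0.64 ± 0.14, 0.00501), *Hjurp* (1.26 ± 0.31, 0.00996), *Cenpi* (4.04 ± 1.31, 0.033) and *Cenpt* (0.83 ± 0.29, 0.041), each on the log2 scale with its SE. *Hjurp*, *Cenpc1*, *Cenpt* and *Spc25* were the 4 genes in which every S-961 library exceeded both untreated ones, where 24.5% of all genes did so. *Cenpt* stood at 3.8 and 2.21 CPM in multipara untreated 1 and 2 and *Hjurp* at 39 and 33.9 CPM. Without multipara S-961 4 the count was 21, where 18% of all genes were called, without multipara S-961 1 or 2 it was 3 (14.7% and 20.4%), and without multipara untreated 2 it was 2 (10.4%). Scaling by total counts alone shifted the median of all genes by 0.47 to 0.43 in virgin and by 0.58 to 0.61 in multipara islets, and then gave 5 and 15 higher calls, where 35.6% and 43.3% of all genes were higher. With that scaling the split of all calls went from 3390 higher and 3172 lower to 6409 and 1272 in virgin islets, and from 3272 and 3496 to 7787 and 1304 in multipara islets.

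Markers of some other cell types also differed between the S-961 groups, and not all of them placed multipara S-961 4 with the virgin libraries. The 16 acinar markers summed to 6120, 8146 and 2163 CPM in virgin S-961 1, 2 and 3 and to 14351, 12728, 9842 and 5373 CPM in multipara S-961 1 to 4, and 15 of the 16 had a positive log2 fold change. All 8 stromal markers, all 7 duct markers and all 4 alpha cell markers were also positive, with 6, 2 and 4 at an unadjusted p under 0.05, while all 5 red cell markers were lower at that level. The summed stromal markers ran from 181 to 213 CPM in virgin and from 262 to 420 CPM in multipara S-961 libraries, and duct markers from 282 to 298 and from 301 to 400 CPM. Multipara S-961 4 stood at 262 CPM for stromal and 335 CPM for duct markers, above every virgin S-961 library. Its acinar sum lay within the virgin range. The defining markers *Ptf1a*, *Col1a1*, *Krt19* and *Gcg* were above 0 in all 7 S-961 libraries. *Ptf1a* rested on 4 counts in virgin S-961 3 and 4 in multipara S-961 4. The acinar regulator *Bhlha15* went the other way, at log2 CPM 7.10, 7.05 and 7.03 in virgin and 6.68, 6.70, 5.54 and 6.97 in multipara S-961 libraries. Of the other lists, 4 of 8 macrophage, 5 of 8 lymphocyte, 4 of 8 endothelial, 2 of 2 delta and 2 of 10 beta cell markers were positive, and 1 delta marker was higher and 1 beta marker lower at an unadjusted p under 0.05. With the mean log2 CPM of the acinar markers as a covariate the median log2 fold change of the 38 genes was 1.44, 0 were called by edgeR (0% of all genes), and 6 were higher at an unadjusted p under 0.05, where 2.01% of all genes were. The part of the other markers was not tested.

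A further 30 genes of the same structures were counted as a separate list. Of these, 29 were tested and *Sgo2b* had a count of 0 in all libraries. In the S-961 comparison 23 had a positive log2 fold change, the median was 1.13 and 0 were called by edgeR (0% of all genes). At an unadjusted p under 0.05 by edgeR, 15 were higher and 0 lower, where 8.03% of all genes were higher and 1.68% lower. Without multipara S-961 4, 14 of 29 were called higher, against 2.69% of all genes. *Aurkb*, the kinase of the passenger complex, stood at 0.185, 0.483 and 0.227 CPM in virgin and 8.87, 7.54, 4.17 and 0.325 CPM in multipara S-961 libraries, a log2 fold change of 4.13 ± 0.98. *Spag5*, which encodes astrin, stood at 0.216, 0.785 and 0.679 CPM in virgin and 14.7, 14.2, 7.98 and 0.916 CPM in multipara S-961 libraries, a log2 fold change of 4.09 ± 0.90. *Haspin*, the histone kinase that places the passenger complex, stood at 0.0309, 0.332 and 0 CPM in virgin and 2.79, 2.94, 2.03 and 0.177 CPM in multipara S-961 libraries, and its log2 fold change of 4.0 ± 1.16 depends on the fit's handling of 0 counts. In all 3, multipara S-961 1, 2 and 3 lay above every virgin S-961 library. The 14 tested genes of this list with an unadjusted p of 0.05 or more had log2 fold changes from -0.26 (*Ndel1*) to 0.37 (*Mad1l1*).

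Between treatments this list held calls in both directions, as did all genes. Of all genes, 18.8% were called higher and 17.6% lower in virgin islets, and 18.2% and 19.4% in multipara islets. *Cenps*, of the CENP-S and CENP-X complex, was higher with S-961 in virgin and multipara islets (1.57 ± 0.37 and 1.45 ± 0.36). *Cenpb*, which binds the CENP-B box of satellite DNA, was lower in both (-0.51 ± 0.14 and -0.52 ± 0.13), as was *Itgb3bp* (-0.82 ± 0.24 and -0.72 ± 0.22). *Cenpv* was also called lower in virgin islets, *Cenpx* lower in multipara islets and *Kntc1* and *Zwilch*, 2 subunits of the RZZ complex, higher in multipara islets (2.44 ± 0.75 and 2.67 ± 0.77). With scaling by total counts alone, 0 of the lower calls were left, *Cenpb* stood at -0.042 and 0.063 in virgin and multipara islets, and *Cenps*, *Kntc1* and *Zwilch* were still called higher, with log2 fold changes from 1.99 to 3.20. With that scaling 35.6% of all genes were called higher and 7.07% lower in virgin islets, and 43.3% and 7.25% in multipara islets. These 7 genes were named after their calls were seen.

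The general proliferation genes *Mki67* and *Top2a* also had multipara S-961 1, 2 and 3 above every virgin S-961 library, a direction that rests on the doubted labels. After S-961 the paper reports a smaller share of beta cells stained for Ki67, the product of *Mki67*, in multipara than in virgin mice. It reports the same for islets transplanted into virgin mice. Those are protein in beta cells, while the values here are RNA of whole islets. *Mki67* stood at 3.43, 13.9 and 3.04 CPM in virgin and 93.9, 65.5, 43.5 and 3.93 CPM in multipara S-961 libraries, and *Top2a* at 2.41, 5.07 and 2.3 CPM in virgin and 93.7, 91.6, 43.5 and 2.54 CPM in multipara, with log2 fold changes of 2.95 ± 0.94 and 4.17 ± 1.01. *Ccnb1*, the mitotic cyclin, had 3.25 ± 0.94, and *Pcna*, the replication clamp, 1.04 ± 0.39. None was called by edgeR with all libraries.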

How the data were processed

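Poly(A) RNA of pancreatic islets was sequenced from stranded libraries (TruSeq), and the authors deposited 1 table of estimated counts per gene for each of the 11 libraries, not normalized. The submitters' processing notes name STAR, RSEM and the builds GRCm38 and mm10. Their versions, the annotation and the strand setting of the counting are not given in the sources used here, and all 55536 identifiers matched GENCODE M21. Estimated counts were rounded to whole numbers. Totals per library ran from 22028484 to 32234140, so a gene at 0.1 CPM rests on few counts.

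Each comparison was fitted over all genes in edgeR (4.0.16, R 4.3.3) by the quasi-likelihood F-test, with TMM scaling, a filter on low counts (filterByExpr, minimum count 10 and minimum total 15) and Benjamini-Hochberg adjustment at 0.05. Parity was compared within the S-961 and within the untreated libraries, each in a fit of its own, while the interaction and the S-961 response came from 1 fit of 4 groups. The SE is the log2 fold change divided by the square root of F and is approximate. Levels are CPM after TMM over all libraries, and log2 CPM used a prior count of 2. CPM per kb divides by the summed length of exons. The covariate for acinar cells was the mean log2 CPM of the 16 markers. Alternatives were DESeq2 (1.42.0), RLE or total-count scaling, no filter, leaving out each library, the replicate number as a block, all libraries in 1 fit and the acinar covariate. Tables and figures were made in Python (3.11.15, pandas 2.3.3, numpy 2.4.6, matplotlib 3.10.9), and the fits were tested on simulated data with known fold changes.

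The 38 genes, the 30 further genes, the 4 proliferation genes and the marker lists were chosen with earlier results of these data known. Values per library are given for the 3 genes of each role with the largest absolute log2 fold change and the 1 with the smallest in the S-961 comparison, for *Cenpi* and *Cenpf*, for genes called in any comparison, and for the 3 largest of the further genes. *Mis12*, *Zwint*, *Cenpo*, *G6pc2*, *Lrrc55*, *Matn2* and other genes outside this rule were named after their values were seen. Promoters came from RefSeq for 35 of the 38 genes, matched by symbol.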

Additional observations from a re-analysis of the deposited data

Results flagged for a closer look

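*Cenpc1*, which encodes CENP-C, had 1 multipara S-961 library far from the other 3. Replicate 3 stood at 17.5 CPM and replicates 1, 2 and 4 between 20.7 and 20.9 CPM, and the gap of replicate 3 to its nearest neighbour was 0.956 of the whole range of the group. In all, 45 genes were examined in this way, all in the 4 multipara S-961 libraries. Chance alone would mark about 1 in 20 if the genes varied independently, which genes of the same libraries need not do. The low value of *Cenpc1* did not lie with multipara S-961 4, the library at the level of those labelled virgin of most kinetochore genes.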

How the results depend on the processing

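With 3 virgin libraries and 4 multipara S-961 libraries, 1 of which was nearest to the virgin ones, the number of genes called depended on the test and the libraries, while the median did so less. In the S-961 comparison DESeq2 called 22 genes higher (2.13% of all genes) and the block 27 (1.84%). The block gives multipara S-961 4, the only library numbered 4, a term of its own, so that library adds nothing to the parity difference. The acinar covariate gave a median log2 fold change of 1.44 and an outer minus centromere side difference of 0.33. The cause of the moves with DESeq2 and with the covariate was not tested. Leaving out single libraries gave 0 to 29 calls (29 without multipara S-961 4), medians of 2.19 to 2.91 and side differences of 0.92 to 1.48. In the untreated comparison leaving out single libraries gave 0 to 12 calls, medians of -0.10 to 1.33 and side differences of -0.25 to 0.89. The interaction median ran from 0.77 to 2.41 and its side difference from -0.45 to 1.63.

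For S-961 in virgin islets total counts alone gave 5 genes higher (35.6% of all genes) and a median of 0.32. Leaving out single libraries gave 1 to 2 higher, 0 to 2 lower, medians of -0.38 to 0.28 and side differences of -0.18 to 0.28. For S-961 in multipara islets DESeq2 called 12 higher (20.3% of all genes), total counts alone 15 (43.3%) and no filter 10 (11.9%), and leaving out single libraries gave 2 to 21, medians of 1.01 to 2.44 and side differences of 0.14 to 1.68.

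Values near 0 changed sign. For *Cenpc1* in the S-961 comparison the log2 fold change was 0.030 with total counts and 0.017 with the acinar covariate, and it ran from -0.072 to 0.028 over single libraries left out, above 0 without virgin S-961 3 or multipara S-961 3. For *Spc25* it was -0.012 with DESeq2, -0.012 with RLE, -0.00912 with no filter, -0.00736 with all 11 libraries in 1 fit and -0.0266 with the acinar covariate, and ran from -0.21 to 0.18 over single libraries left out, below 0 without virgin S-961 1 or 2 or multipara S-961 1 or 2. For *Cenpi* with S-961 in virgin islets it was 0.28 with total counts and ran from -0.73 to 0.75 over single libraries left out, above 0 without virgin S-961 3 or virgin untreated 1.

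Groups shared replicate numbers, but nothing in the labels pairs the libraries. The deviations of same-numbered S-961 libraries from their group means correlated at 0.056, 0.012 and 0.093, and not every library correlated best with its own number. With the replicate number as a block, the S-961 comparison called 27 genes higher with a side difference of 1.40, S-961 in virgin islets 1 lower (15.8% of all genes) with a median of 0.17, and S-961 in multipara islets 24 higher (15.8%). Under the block *Spc25* was -0.022 in the S-961 comparison and *Cenpi* 0.094 with S-961 in virgin islets. Of the values of named genes under all alternatives, 559 kept their direction and side of the threshold, 77 newly passed it, 16 no longer did and 18 changed sign.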
